A study of Mus musculus with 24 samples.

Results

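The genes described here are 10 genes of cell division and of newly made neurons: Hmgb2, Chek1, Rrm2, Mki67, Top2a, Mcm2, Eomes, Sox4, Sox11 and Dcx. They were taken by their platform symbol out of 19938 genes measured in mouse hippocampus, each through the probe (transcript cluster) with the highest mean over the arrays. Hmgb2, Chek1 and Rrm2 were chosen from these same data because their rise after learning was smaller in the mutant, so their values are given as a description with no test. The other 7 genes were not chosen for their values, and they carry the tests.

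RNA came from hippocampi dissected from males of 8 to 9 weeks, whose strain is labelled C57BL/6J-129sv mixed background. There were 4 groups of 6 arrays: FoxO6 null mutants (FoxO6 -/-) after learning, wild types (WT, FoxO6 +/+) after learning, mutants at basal and WT at basal. FoxO6 is a forkhead transcription factor. Learning mice had been handled every day, spent 10 min in the empty arena 24 h earlier, explored a pair of identical new objects for 10 min and were killed 60 min later, whereas basal mice lived singly for at least 3 days. The cohort, its handling and the task differ together between the states and cannot be told apart. Arrays within a group are labelled as biological replicates, but nothing states 1 animal per array, and p-values therefore reflect only the spread among these samples, which may in part be technical. The labels name no Cre or transgene and do not describe the null allele.

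In the adult hippocampus, stem cells in the subgranular zone of the dentate gyrus divide and give rise to intermediate progenitors, which become immature granule neurons and then join the granule cell layer. E2F transcription factors switch on genes of DNA synthesis as a cell enters S phase, and the DREAM and MuvB complexes, which bind CHR elements, time the genes of mitosis. Eomes marks the intermediate progenitors, and Sox4, Sox11 and Dcx are genes of the young neurons. Such cells are few in the adult tissue, and in a bulk sample fewer cells of a type and less RNA per cell cannot be told apart.

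Values are log2 expression made by the authors with RMA, and a difference of 1 is a change of a factor of 2. Array medians lay between 6.16 and 6.3. The probe for Foxo6 itself averaged 6.24 ± 0.15 in mutant learning, 6.87 ± 0.15 in WT learning, 6.3 ± 0.16 in mutant basal and 7.03 ± 0.2 in WT basal arrays (SD, n = 6 each), with no overlap between the genotypes in either state. It was 0.647-fold of WT after learning (limma, adjusted p = 0.000833) and 0.604-fold at basal (adjusted p = 0.000128), and the sources used here do not say which part of the gene the null allele removes. Levels of the markers of other cell types are given further below.

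The promoters of the 3 genes picked on their values and of Mki67 and Top2a, the usual marks of dividing cells, are shown because E2F and CHR elements are the textbook route by which such genes are switched on together. Each window runs 5′ to 3′ from 250 bases before to 50 bases after the annotated gene start, and comes from RefSeq on build GRCm38.p6. Capitals mark the 3 motifs searched on both strands: the E2F motif, the CHR motif and the CCAAT box. The E2F motif was searched as TTCCCGC but also in the form TTCGCGC, as well as in the form TTGCCGC, and lastly in the form TTGGCGC. The CHR motif was searched as TTTGAA and in the other form as TTCGAA, and the box as CCAAT.
Hmgb2: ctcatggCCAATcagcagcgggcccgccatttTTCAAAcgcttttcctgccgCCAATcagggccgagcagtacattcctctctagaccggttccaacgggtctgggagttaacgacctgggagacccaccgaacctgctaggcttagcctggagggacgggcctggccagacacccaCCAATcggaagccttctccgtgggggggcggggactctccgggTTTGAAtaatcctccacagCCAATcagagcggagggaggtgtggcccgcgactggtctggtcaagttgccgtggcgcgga
Chek1: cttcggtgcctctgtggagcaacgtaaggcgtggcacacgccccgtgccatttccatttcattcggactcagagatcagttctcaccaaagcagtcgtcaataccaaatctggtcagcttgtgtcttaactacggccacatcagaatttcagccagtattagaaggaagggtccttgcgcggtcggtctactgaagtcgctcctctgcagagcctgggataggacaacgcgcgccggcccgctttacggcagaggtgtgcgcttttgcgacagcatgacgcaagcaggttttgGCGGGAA
Rrm2: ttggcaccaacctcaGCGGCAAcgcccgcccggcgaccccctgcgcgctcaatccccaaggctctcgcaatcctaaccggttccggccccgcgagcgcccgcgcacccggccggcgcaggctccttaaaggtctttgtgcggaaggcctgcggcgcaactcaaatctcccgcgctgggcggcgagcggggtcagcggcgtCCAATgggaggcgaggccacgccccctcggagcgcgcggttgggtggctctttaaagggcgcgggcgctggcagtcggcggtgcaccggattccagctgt
Mki67: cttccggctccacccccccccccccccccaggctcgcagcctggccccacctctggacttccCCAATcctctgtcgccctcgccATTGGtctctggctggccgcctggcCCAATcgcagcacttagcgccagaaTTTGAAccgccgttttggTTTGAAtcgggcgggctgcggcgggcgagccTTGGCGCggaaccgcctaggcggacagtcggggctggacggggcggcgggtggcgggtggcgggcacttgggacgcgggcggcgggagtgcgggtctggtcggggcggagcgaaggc
Top2a: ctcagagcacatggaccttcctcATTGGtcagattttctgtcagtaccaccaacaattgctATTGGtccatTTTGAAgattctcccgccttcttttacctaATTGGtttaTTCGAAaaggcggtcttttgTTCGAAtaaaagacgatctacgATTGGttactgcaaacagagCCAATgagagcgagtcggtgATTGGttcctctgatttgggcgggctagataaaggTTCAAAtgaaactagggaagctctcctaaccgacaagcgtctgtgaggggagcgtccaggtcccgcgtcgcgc
The Hmgb2 window (chr8:57511593-57511892, + strand) held 0 E2F, 2 CHR and 4 CCAAT matches. The Chek1 window (chr9:36726609-36726908, - strand) held 1 E2F match, with 0 of either other motif. The Rrm2 window (chr12:24708004-24708303, + strand) held 1 E2F and 1 CCAAT match. The Mki67 window (chr7:135716330-135716629, - strand) held 1 E2F, 2 CHR and 3 CCAAT matches, and the Top2a window (chr11:99024140-99024439, - strand) held 4 CHR and 6 CCAAT matches with 0 of E2F. No match of one motif overlapped a match of another. Among all 32851 windows of this length, 9.57% held the E2F motif, 19.2% the CHR motif and 37.4% CCAAT. All 10 genes had a window, 11 windows in all because Dcx has 2, and among the 5 genes not printed only Mcm2 and Sox11 held a CHR match, 1 each. The E2F motif was absent from the windows of those 5. A match describes letters in a window and is not a measured binding site.

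Hmgb2 is a chromatin protein with HMG boxes that bends DNA and is abundant in dividing cells (gene at chr8:57511843-57515999). It had log2 values with a lowest of 6.64, a median of 6.84 and a highest of 6.98 in mutant learning arrays, and 7.01, 7.17 and 7.46 in WT learning arrays. At basal the same 3 values were 6.51, 6.57 and 6.73 in mutants and 6.46, 6.58 and 6.69 in WT. All WT learning arrays lay above all mutant learning arrays, while the basal genotypes overlapped. Hmgb2 was picked on these values, so this separation is part of the choice and no support for it. The share of all genes with such a separation between genotypes was not counted. Learning minus basal was 0.23 in mutants and 0.62 in WT (a 1.54-fold level).

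Chek1 encodes the kinase CHK1, which halts the cell cycle when replication forks stall (chr9:36708482-36726658). Its lowest, median and highest values were 5.2, 5.36 and 5.59 in mutant learning and 5.56, 5.6 and 5.87 in WT learning arrays. They were 5.23, 5.37 and 5.52 in mutant basal and 5.09, 5.18 and 5.36 in WT basal arrays. The mutants were alike in both states, with a learning difference of 0.01. The WT groups were apart without overlap, at 0.44, as were those of 25.2% of all genes. The picked pattern had both a lower mutant level after learning (-0.27) and a higher one at basal (0.16).

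Rrm2 encodes the small subunit of ribonucleotide reductase, which makes deoxynucleotides for DNA synthesis (chr12:24708254-24714146). The lowest, median and highest values were 5.94, 6.15 and 6.48 in mutant learning, 6.15, 6.44 and 6.69 in WT learning, 6.13, 6.29 and 6.38 in mutant basal and 5.96, 6.04 and 6.2 in WT basal arrays. Every pair of these groups overlapped. Learning minus basal was -0.12 in mutants and 0.34 in WT, and mutant minus WT was -0.25 after learning and 0.22 at basal.

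The values that chose these 3 genes, the genotype difference after learning less that at basal, were -0.39 for Hmgb2, -0.43 for Chek1 and -0.47 for Rrm2. Intervals of these 3 genes are left out of the text because the genes were picked on this quantity. The same quantity ran from -0.14 for Dcx to 0.1 for Mki67 in the other 7. No gene of the whole table was called for it: 0 of 19938 genes (0.0%) had an adjusted p under 0.05 in limma, the lowest adjusted p was 1.0, and 510 genes had an unadjusted p under 0.05. That count is below what chance alone would give on average at that threshold.

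**Figure D1:**
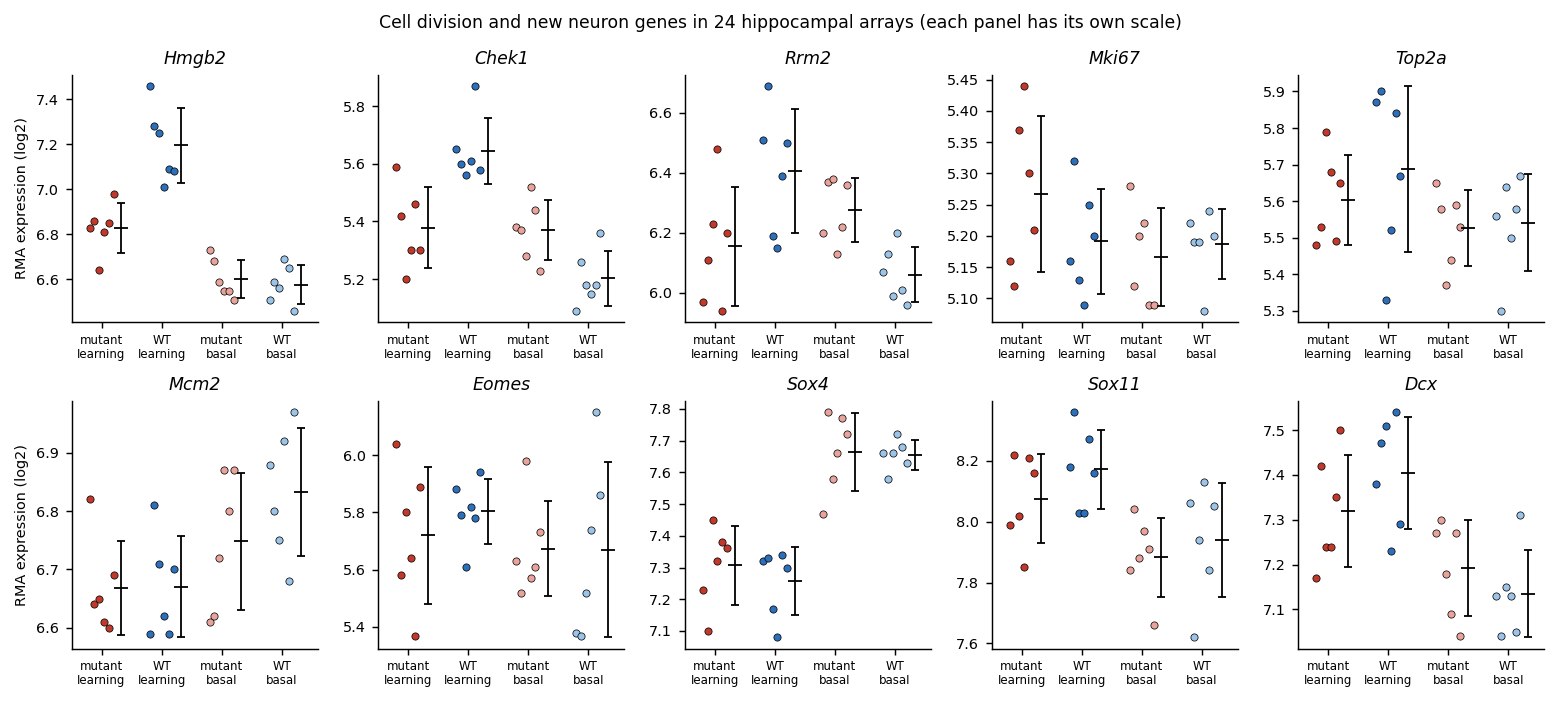
Log2 expression of the 10 genes in 24 arrays, 1 panel per gene with its own vertical scale. Points are arrays, and the bar to the right of each group is the mean with its SD (n = 6). Hmgb2 is highest in WT learning arrays (7.01 to 7.46), Mki67 is dim and spans 5.08 to 5.44 over all arrays, and Sox4 is lower in both learning groups than in both basal groups.

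Hmgb2 is measured by 4 probes with 1 symbol, and they did not give one size. In the probe used, 10518350, learning minus basal was 0.23 in mutants and 0.62 in WT. In probe 10518352 it was 0.43 in mutants and 0.57 in WT. The rise after learning appeared in all 4 probes and both genotypes, from 0.23 to 0.43 in mutants and from 0.57 to 0.67 in WT. The genotype difference after learning was -0.37 in the probe used, -0.32 in 10571870, -0.3 in 10510172 and -0.16 in 10518352, and the difference of differences that served for the choice was -0.39, -0.26, -0.32 and -0.13 in the same probes. The probe used thus showed the largest of the 4. Of the probes with neighbouring numbers, 20 of 20 around 10571870 belong to genes on chromosome 8, where Hmgb2 lies, whereas 17 of 19 around 10518350, 18 of 20 around 10510172 and 17 of 19 around 10518352 belong to genes on chromosome 4. Foxo6 lies on chromosome 4 (chr4:120267078-120287261). The sources used here do not give the positions of the probes, so whether the chromosome 4 group reads Hmgb2 or a copy of it was not tested.

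**Figure D2:**
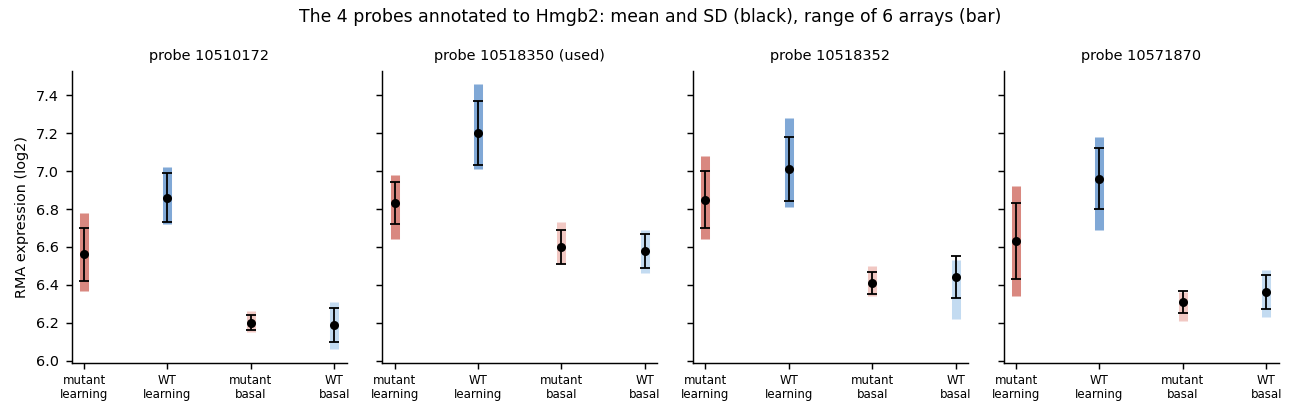
Log2 expression of the 4 probes annotated to Hmgb2, with black points and bars for the mean and SD of 6 arrays and coloured bars for their range. The genotype gap after learning is -0.37 in the probe used and -0.16 in probe 10518352.

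Mki67 encodes Ki-67, the protein that coats chromosomes in mitosis and is the usual stain for cycling cells (chr7:135689784-135716450). It had a lowest value of 5.12, a median of 5.26 and a highest of 5.44 in mutant learning arrays, against 5.09, 5.16 and 5.28 in mutant basal arrays. In WT it had 5.09, 5.18 and 5.32 after learning, against 5.08, 5.19 and 5.24 at basal. All 4 groups overlapped. Learning minus basal was 0.1 in mutants (-0.03 to 0.23, limma adjusted p = 0.206) and 0.01 in WT (-0.12 to 0.14, adjusted p = 0.952).

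Top2a, the topoisomerase that untangles replicated chromosomes (chr11:98992947-99024199), was likewise not called. Its values were 5.48, 5.59 and 5.79 (lowest, median, highest) in mutant learning, 5.33, 5.76 and 5.9 in WT learning, 5.37, 5.55 and 5.65 in mutant basal and 5.3, 5.57 and 5.67 in WT basal arrays. WT learning arrays were the most scattered, and 3 of their 6 values were above the highest WT basal value. Learning minus basal was 0.08 in mutants (adjusted p = 0.523) and 0.15 in WT (-0.03 to 0.33, adjusted p = 0.182). The WT difference was 0.22 and called (adjusted p = 0.0331) without WT learning array 3, the lowest of its group. A second Top2a probe, 10390746, gave 0.03 in mutants and 0.06 in WT, and 2 further probes are shared with another gene and were not used.

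Mcm2 encodes a subunit of the MCM helicase that is loaded on origins before S phase (chr6:88883474-88898780). It was lower after learning in WT: its values were 6.59, 6.66 and 6.81 in WT learning arrays, against 6.68, 6.84 and 6.97 in WT basal arrays, a difference of -0.16 (0.894-fold, adjusted p = 0.0441). In mutants they were 6.6, 6.64 and 6.82 after learning, against 6.61, 6.76 and 6.87 at basal, a difference of -0.08 (adjusted p = 0.337). The groups overlapped in both genotypes. The WT call is weak: the adjusted p was 0.119 after centring every array at its median, 0.0666 with array weights and 0.052 with only the WT arrays, and the call was lost when any of 9 single WT arrays was left out (adjusted p up to 0.11). The arrays whose removal kept it were WT learning array 2 and WT basal arrays 3 and 5.

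Eomes, also called Tbr2, is the transcription factor of intermediate progenitors (chr9:118478186-118486132). Its lowest, median and highest values were 5.37, 5.72 and 6.04 in mutant learning, 5.61, 5.81 and 5.94 in WT learning, 5.52, 5.62 and 5.98 in mutant basal and 5.37, 5.63 and 6.15 in WT basal arrays. Learning minus basal was 0.04 in mutants (adjusted p = 0.797) and 0.13 in WT (-0.1 to 0.37, adjusted p = 0.38). The WT basal arrays were not alike: arrays 1 to 6 had Eomes values of 5.38, 5.37, 5.52, 5.74, 6.15 and 5.86. The same arrays had 11.65, 12.11, 11.81, 8.8, 9.64 and 9.17 for Ttr, the transthyretin gene that choroid plexus expresses strongly. The 3 arrays with high Eomes were thus the 3 with low Ttr. Leaving out those 3 arrays, an alternative chosen after seeing the data, takes the highest Eomes values out of the basal group, so the larger difference of 0.38 that it gave in WT follows from the choice and is no test. The mean level of 10 choroid plexus markers ranged over 6.1 to 7.14 in mutant learning, 6.19 to 6.52 in WT learning, 6.7 to 7.32 in mutant basal and 6.12 to 7.29 in WT basal arrays. The part of that tissue in the Eomes values was not tested.

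Sox4, a SoxC transcription factor of progenitors and young neurons, was the clearest mover of the 7 (chr13:28948919-28953699). It had 7.1, 7.34 and 7.45 (lowest, median, highest) in mutant learning arrays, against 7.47, 7.69 and 7.79 in mutant basal arrays. In WT it had 7.08, 7.31 and 7.34 after learning, against 7.58, 7.66 and 7.72 at basal. No learning array reached any basal array of its genotype. Sox4 fell by 0.36 in mutants (0.779-fold, adjusted p = 2.34e-05) and by 0.40 in WT (0.76-fold, SE 0.0631, adjusted p = 5.65e-06). The exact permutation test of 6 against 6 arrays gave p = 0.00216 in each genotype, the smallest that 924 assignments allow, and 0.0303 after adjustment over 28 tests.

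Sox11, the closely related SoxC factor (chr12:27334268-27342718), moved the other way. Its values were 7.85, 8.09 and 8.22 in mutant learning, against 7.66, 7.89 and 8.04 in mutant basal arrays, and 8.03, 8.17 and 8.36 in WT learning, against 7.62, 7.99 and 8.13 in WT basal arrays. The groups overlapped in each genotype. Sox11 rose by 0.23 in WT (1.17-fold, adjusted p = 0.0193), and the difference in mutants was 0.19 (adjusted p = 0.0553). The WT call was lost without WT learning array 2 (adjusted p = 0.0585) or WT basal array 2 (adjusted p = 0.0777), and the exact permutation p of 0.0303 became 0.17 after adjustment. In WT the 2 related factors therefore changed in opposite directions.

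Dcx encodes doublecortin, the microtubule protein of migrating young neurons (chrX:143855842-143933396). It had 7.17, 7.29 and 7.5 in mutant learning, against 7.04, 7.23 and 7.3 in mutant basal arrays, and 7.23, 7.43 and 7.54 in WT learning, against 7.04, 7.13 and 7.31 in WT basal arrays. WT learning arrays were mostly above the WT basal range, and 1 basal value of 7.31 reached into theirs. Dcx rose by 0.27 in WT (1.21-fold, SE 0.068, adjusted p = 0.00161), with an exact permutation p of 0.00649 that became 0.0606 after adjustment over 28 tests. The mutant difference was 0.13 (adjusted p = 0.143). That Dcx passed in WT and not in mutants does not show a difference between them: the difference of differences was -0.14 with an adjusted p of 1.0.

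In mutants, 1 of the 7 tested genes (Sox4) was called after learning, and in WT 4 of 7 were, with Sox11 and Dcx higher and Sox4 and Mcm2 lower. Of all genes, 41.3% were called in mutants (22.6% higher, 18.7% lower) and 43.3% in WT (25.1% higher, 18.2% lower). Averaged over genotypes 4 of the 7 were called, where 54.8% of all genes were. With 7 genes tested, these shares are not a result about the members. Groups of 6 that did not overlap occurred for 22.7% of all genes in mutants and 25.2% in WT, and among the 7 for Sox4 alone in each genotype.

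**Figure D3:**
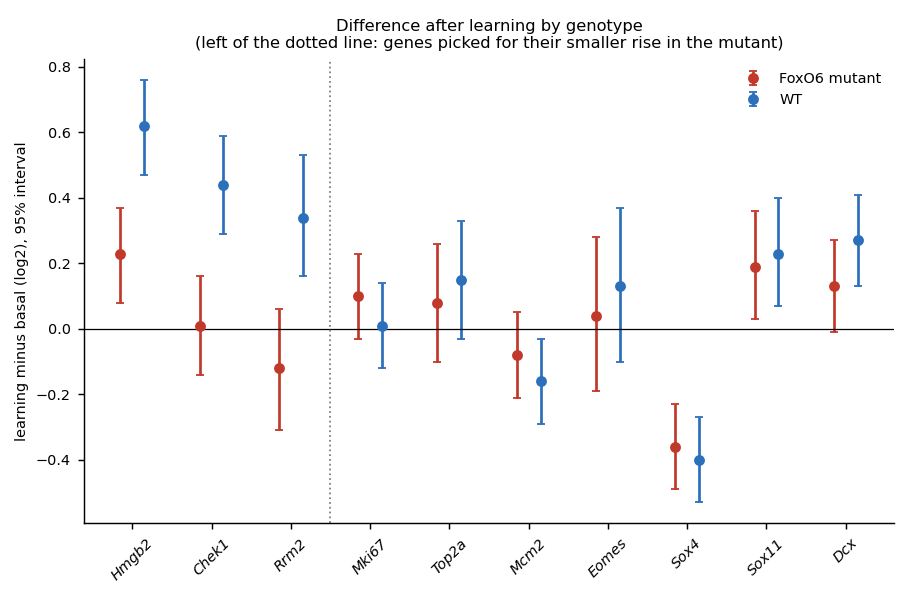
Learning minus basal on the log2 scale for the 10 genes in FoxO6 mutants and WT, with 95% intervals from the limma fit (n = 6 arrays a group). The 3 genes left of the dotted line were chosen for the gap between the genotypes, so their intervals are no test of it. To the right, Sox4 lies at -0.36 in mutants and -0.4 in WT, and the intervals of the genotypes overlap in all 7 genes.

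Between genotypes, none of the 7 genes differed past the threshold. Mutant minus WT ran from -0.1 to 0.08 after learning (adjusted p 0.811 to 0.991) and from -0.08 to 0.06 at basal (adjusted p 1.0 for each). Averaged over both states it ran from -0.08 to 0.03 (adjusted p 0.735 to 0.962). Few genes of the table passed these comparisons, 0.0752% after learning, 0.1% at basal and 0.391% averaged. The genotype comparisons and the learning comparisons share their arrays, so they are not independent of each other.

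Related genes were counted in 8 lists with 152 of 158 genes measured, chosen with earlier results of these data known. The median learning difference of all genes was 0.03 in each genotype, beside which each list's median stands here as a description. The counts of calls below stand against 22.6% of all genes higher and 18.7% lower in mutants, and 25.1% higher and 18.2% lower in WT, and no list was tested against these shares. In the replication list (29 genes of origin licensing and the fork), 12 rose and 2 fell in mutants (median 0.17), and 14 rose and 0 fell in WT (median 0.15). Orc6, an origin recognition subunit, rose by 0.77 in mutants (adjusted p = 1.67e-09) and by 0.74 in WT (3.72e-09). Rpa2, which coats single-stranded DNA, rose by 0.53 in mutants (5.02e-09) and by 0.62 in WT (2.4e-10). Pcna, the sliding clamp, rose by 0.36 in mutants (1.13e-07) and by 0.38 in WT (4.5e-08), and Rfc4, part of the clamp loader, by 0.71 in mutants (1.28e-07) and by 0.79 in WT (1.84e-08).

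The other MCM subunits, named after their values were seen because Mcm2 acts with them in one ring, did not move as one. Mcm4 rose by 0.39 in mutants (adjusted p = 9.99e-05) and by 0.39 in WT (8.77e-05), with means of 7.11 ± 0.13 in mutant learning, 7.12 ± 0.16 in WT learning, 6.72 ± 0.15 in mutant basal and 6.73 ± 0.07 in WT basal arrays. Mcm3 fell by 0.34 in mutants (0.00231) and differed by -0.18 in WT (0.0958). Mcm5 differed by -0.15 in mutants and -0.11 in WT, Mcm6 by 0.29 and 0.14, and Mcm7 by -0.0025 and -0.08, none of them past the threshold within a genotype.

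Of 10 nucleotide synthesis genes, the pathway of Rrm2, 5 rose and 1 fell in mutants (median 0.18), and 6 rose in WT (median 0.16). Rrm2b, the alternative small subunit of the reductase that works outside S phase, rose by 0.37 in mutants (adjusted p = 0.00018) and by 0.53 in WT (1.16e-06). Dut, which removes dUTP, rose by 0.35 in mutants (2.09e-06) and by 0.37 in WT (7.08e-07). The large subunit Rrm1 rose by 0.21 in mutants (0.00066) and by 0.28 in WT (1.8e-05). Paics, a purine enzyme, fell by 0.16 in mutants (0.0116) and differed by -0.11 in WT (0.0875).

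The mitosis list, the company of Mki67 and Top2a, had 3 of 35 genes higher in mutants (median 0.05) and 7 of 35 in WT (median 0.06), with 0 lower in either, where 22.6% of all genes were higher in mutants and 25.1% in WT. The 3 with the smallest p were the same in both genotypes. Anln, an actin-binding protein of the cleavage furrow that myelin-forming cells also make, rose by 0.46 in mutants (adjusted p = 4.91e-06) and by 0.43 in WT (1.09e-05). Smc2 and Ncapg, both of condensin, rose by 0.46 and 0.2 in mutants and by 0.38 and 0.21 in WT, and the mutant call of Ncapg was lost under a second quantile normalization (0.054). The mutant count depended on scaling, with 8 genes higher after median centring. In 18 checkpoint genes, the company of Chek1, 3 rose and 4 fell in mutants, and 5 rose and 2 fell in WT. Rad17, a clamp loader of the checkpoint, rose by 0.25 in mutants (0.00241) and by 0.32 in WT (0.000174). Atr, the kinase that activates CHK1, rose by 0.34 in mutants (0.00847) and by 0.26 in WT (0.0409). Atm, its relative for broken DNA, rose by 0.19 in mutants (0.0362, lost in 7 of 12 fits without 1 mutant array, up to 0.0988) and by 0.29 in WT (0.00201). Rad9a, of the checkpoint clamp, fell by 0.38 in mutants (0.000404) and by 0.28 in WT (0.00631, or 0.102 without the 3 WT basal arrays low in Ttr), and the CDK phosphatase Cdc25b fell by 0.28 and by 0.37.

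Among 26 G1 cyclins, E2F factors and inhibitors, 7 rose and 3 fell in mutants, and 6 rose and 2 fell in WT. E2f4, an E2F that mostly represses in resting cells, fell by 0.78 in mutants (adjusted p = 3.34e-14) and by 0.71 in WT (2.21e-13). Its arrays were at 7.34 to 7.51 in mutant learning and 7.43 to 7.58 in WT learning, against 8.13 to 8.3 in mutant basal and 8.15 to 8.3 in WT basal. Lin54, the MuvB subunit that binds CHR elements, rose by 0.52 in mutants (2.26e-08) and by 0.5 in WT (3.72e-08). Cdkn2c, an inhibitor of the G1 kinases, rose by 0.63 in mutants (5.1e-07) and by 0.7 in WT (7.14e-08), while Cdk4, one of those kinases, fell by 0.26 and by 0.3.

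**Figure D4:**
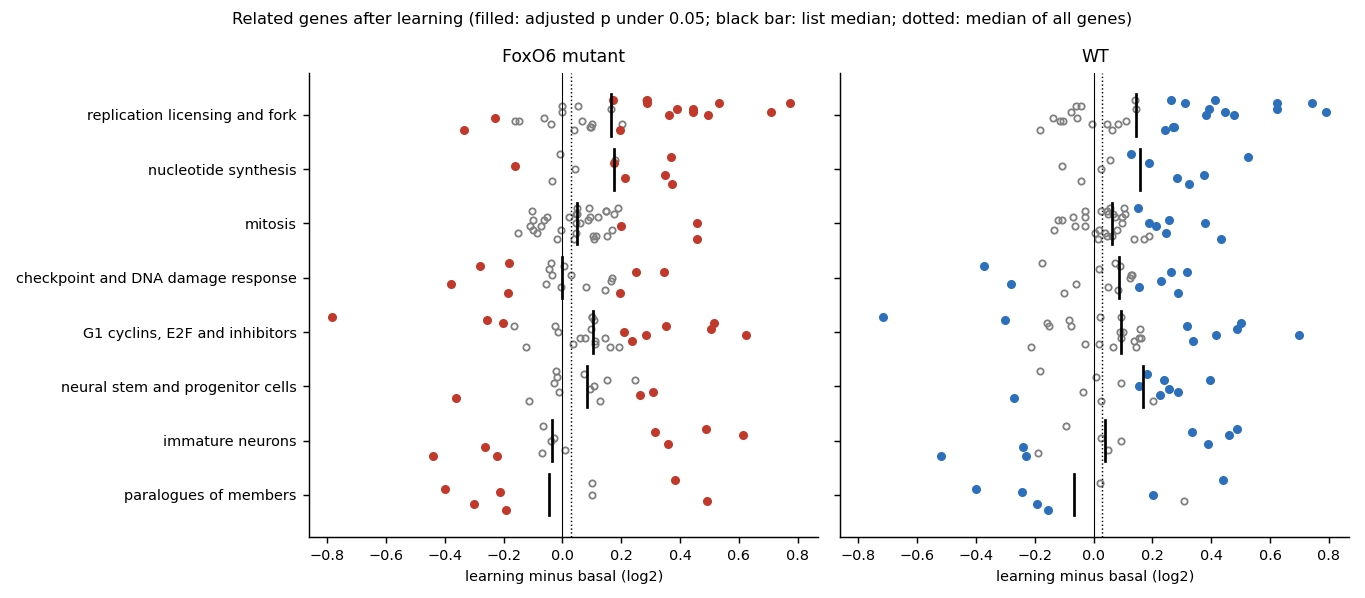
Learning minus basal on the log2 scale for 152 related genes in 8 lists, with FoxO6 mutants on the left and WT on the right. Filled points have an adjusted p under 0.05, open ones do not, black bars are list medians and the dotted line is the median of all genes (0.03). Mitosis genes lie near that line in both panels (medians 0.05 and 0.06), and the replication list lies to its right (0.17 and 0.15).

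Of 14 stem and progenitor genes, 2 rose and 1 fell in mutants (median 0.08; 22.6% of all genes rose), and 7 rose and 1 fell in WT (median 0.17; 25.1% of all genes rose). With lists of this size these counts are not a result about the list. Hes1, a Notch target that holds stem cells back from differentiation, rose by 0.31 in mutants (adjusted p = 0.00314) and by 0.29 in WT (0.0053). Id4 rose by 0.26 in mutants (0.00214) and by 0.23 in WT (0.00732). Pax6 and Sox2, transcription factors of the stem cells, differed by 0.09 and 0.15 in mutants (0.166 and 0.0546) and rose by 0.26 and 0.24 in WT (0.000195 and 0.00232). Nes, the intermediate filament nestin, fell by 0.36 in mutants (0.000632) and by 0.27 in WT (0.00869). The difference in count between the genotypes was not tested as such, and no gene of the list was called in the difference of differences.

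The 12 genes of immature neurons divided in each genotype, with 4 higher and 3 lower in mutants and 4 higher and 3 lower in WT. Neurod1, which drives granule cell differentiation, had means of 8.28 ± 0.18 in mutant learning, 8.23 ± 0.15 in WT learning, 7.79 ± 0.11 in mutant basal and 7.75 ± 0.18 in WT basal arrays, and rose by 0.49 in mutants (adjusted p = 1.67e-05) and by 0.49 in WT (1.65e-05). The tubulin Tubb2b rose by 0.36 in mutants and by 0.39 in WT. Calb2, calretinin, which marks postmitotic immature granule cells and also interneurons and mossy cells of the mouse, fell by 0.44 in mutants (1.94e-05) and by 0.52 in WT (1.6e-06). Tubb3, a neuronal tubulin, fell by 0.22 and by 0.23, so these 2 tubulins changed in opposite directions.

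The 8 paralogues of the members gave 2 higher and 4 lower in each genotype. Hmgb1, a relative of Hmgb2, rose by 0.49 in mutants (adjusted p = 0.0201) and differed by 0.31 in WT (0.149). Its mutant call was lost without mutant learning array 2 or 5 or mutant basal array 4, 5 or 6, and the higher count was then 1. Tbr1, a relative of Eomes, fell by 0.3 in mutants (0.000174) and by 0.19 in WT (0.0117). Hmgb3, a relative of Hmgb2, rose by 0.38 in mutants (adjusted p = 0.000326) and by 0.44 in WT (5.63e-05). Dclk1 and Dclk2, relatives of Dcx with a kinase domain, fell by 0.19 and 0.4 in mutants and by 0.16 and 0.4 in WT, opposite to Dcx in WT. Sox12, the third SoxC gene, fell by 0.21 in mutants (0.0188) and by 0.24 in WT (0.00666). Top2b, the isoform of neurons that have stopped dividing, differed by 0.1 in mutants (0.247) and rose by 0.2 in WT (0.0164, or 0.069 without the 3 WT basal arrays low in Ttr).

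No gene of the 8 lists was called between genotypes after learning or at basal. Averaged over states, Anln was lower in mutants (-0.25, adjusted p = 0.0174), with 8.28 ± 0.15 in mutant learning and 8.52 ± 0.09 in WT learning, 7.83 ± 0.19 in mutant basal and 8.09 ± 0.07 in WT basal arrays. That call was lost after median centring (0.0752) and without the 3 WT basal arrays low in Ttr (0.134). Stmn1, stathmin, a tubulin-binding protein of growing neurons, was higher in mutants by 0.15 (0.0455), with 11.68 ± 0.08 in mutant learning and 11.53 ± 0.1 in WT learning, 11.36 ± 0.07 in mutant basal and 11.2 ± 0.13 in WT basal arrays. Its call was lost in 17 of 24 fits that left out 1 array (adjusted p up to 0.101), without the trend (0.14) and after median centring (0.133).

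Levels of markers of other cells are given here as a description. Oligodendrocyte precursors, which also divide in the adult, had a mean over 8 markers of 7.73 to 7.94 in mutant learning and 7.74 to 7.87 in WT learning, against 7.92 to 8.04 in mutant basal and 7.87 to 7.96 in WT basal arrays. These 8 markers did not move as one. Sox10 fell by 0.63 in mutants (adjusted p = 1.03e-09) and by 0.62 in WT (1.32e-09), while Pdgfra differed by 0.08 in mutants (0.202) and rose by 0.22 in WT (0.000297). The 6 markers of neuroblasts of the lateral ventricle wall, the other neurogenic zone, lay at 6.95 to 7.09 in mutant learning, 6.82 to 7.03 in WT learning, 6.8 to 7.02 in mutant basal and 6.76 to 6.94 in WT basal arrays. Their learning difference was above 0 for 6 of 6 in mutants (median 0.06) and 3 of 6 in WT (median 0.01). In each genotype 2 were called higher and 0 lower, where 22.6% of all genes were higher in mutants and 25.1% in WT. Dlx5 was higher by 0.29 in mutants and by 0.32 in WT. The 7 markers of mature granule cells averaged 8.56 in mutant learning, 8.7 in WT learning, 8.41 in mutant basal and 8.62 in WT basal arrays, and their members moved both ways after learning. Prox1, their defining transcription factor, fell by 0.31 in mutants and by 0.41 in WT, while Calb1 rose by 0.49 and by 0.4, Tdo2 by 0.71 and by 0.6, and Stxbp6 by 0.25 and by 0.15. Between genotypes all 7 granule cell markers were lower in mutants, with median differences of -0.25 at basal and -0.16 after learning. At basal 1 of the 7 was called lower, where 0.1% of all genes were called, and after learning 0 were. Averaged over states 3 of the 7 were called lower, where 0.391% of all genes were called. The list was chosen with earlier results of these data known, so these counts are not a result about granule cells. The 7 endothelial markers averaged 7.76, 7.84, 8.02 and 7.95, the 5 astrocyte markers 9.95, 10.02, 10.08 and 10.08, and the 9 microglial markers 7.71, 7.72, 7.69 and 7.62, each in the order mutant learning, WT learning, mutant basal and WT basal. The part of these cells in the values of the 10 genes was not tested.

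After each group's mean was subtracted, correlations among the 10 genes over the 24 arrays ran from -0.44 to 0.6. Of 45 pairs, Sox11 and Dcx had the highest Pearson r (0.6), followed by Top2a with Sox4 (0.51), Rrm2 with Top2a (0.46) and Mki67 with Top2a (0.45). The lowest was Chek1 with Rrm2 (-0.44), both picked for the same pattern of group means. These are descriptions, since all genes of an array share its RNA and its normalization. By the same measure over all genes with a symbol, Hmgb2 was nearest to Znrd1as (0.8), Sugt1, Nif3l1 and Zfp729b (0.79 each) and Pigc (0.78). Mki67 was nearest to Cep152 (0.73), Kdm2b (0.7), Lrrc34 (0.67), Il17ra (0.66) and Smoc2 (0.65). Dcx was nearest to Elp2 (0.84), Cep57 and Ckap5 (0.83 each), and Prpf38a and Ankub1 (0.82 each). None of the other 9 genes was among the nearest 5 of these 3.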

How the data were processed

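RNA of 24 hippocampal samples was measured on Affymetrix Mouse Gene 1.0 ST arrays. The deposited values are on a log2 scale and were made by the authors with RMA (background correction, quantile normalization and probe summary), per the submitters' processing notes; the sources used here give neither its version nor the chip definition. The table held 35511 probes, of which 21789 had 1 symbol in the platform annotation, 1621 had several and 12101 had none. Genes with more than 1 probe (999) were represented by the probe of highest mean, which left 19938 genes, with no filter on dim ones. The number of arrays limits the precision.

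One linear model with a mean per group was fitted over all 24 arrays in limma 3.58.1 (R 4.3.3), with eBayes and a trend (20 residual degrees of freedom). P-values are two-sided, with Benjamini-Hochberg adjustment across the 19938 genes within each comparison, and a gene was called under 0.05. "Rose" and "fell" stand for calls. Every adjusted p comes from limma unless an exact permutation test is named. Intervals are 95% intervals of the fit. Groups of 6 arrays are given by lowest, median and highest value, or as mean ± SD.

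The members, the gene lists and the rules were chosen with earlier results of these data known, and the promoter motifs with the sequences in view. The 10 members are always given, with the 5 genes of most similar variation for Hmgb2, Mki67 and Dcx. Genes named from the pathway lists come mostly from the 3 called per list and direction with the smallest p. Not all of those are named. Each of 7 marker lists (52 of 56 genes measured) covers a cell type the tissue can hold. Replicate numbers do not pair the samples: of 36 pairs of groups and numbers, 7 had correlated deviations over 0.1 (r from -0.3 to 0.45). In simulated data for the WT learning comparison, with 19938 genes, 41.8% of 67 genes changed by 0.25, 94% of 67 changed by 0.5 and 100% of 66 changed by 1 were found, with 10 false calls. No other gene was changed there, whereas 43.3% of all genes were called in the measured WT comparison. These rates check the code and do not describe that comparison. Alternatives were median centring, a second quantile normalization, array weights, no trend, the mean of all probes, all probes, only genes above the median level, only the 12 arrays of a comparison, the replicate number as a block, and leaving out each array.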

Additional observations from a re-analysis of the deposited data

Results flagged for a closer look

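In 40 groups of 6 values (10 genes in 4 groups), 2 had a sample far from the others for their range, and chance alone gives about 1 in 20 groups. WT learning array 5 was the highest of its group for Chek1 at 5.87, where the median was 5.6. WT basal array 4 was the lowest of its group for Mki67 at 5.08, where the median was 5.19.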

How the results depend on the processing

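The calls of Sox4 in both genotypes and of Dcx in WT were kept in every alternative limma fit, with adjusted p up to 0.000556 (Sox4, WT), 0.000393 (Sox4, mutants) and 0.00618 (Dcx). The 4 calls in WT became 3 with the replicate number as a block, where Mcm2 was -0.16 with an adjusted p of 0.0528. The block changed no other call among the 7 genes. Mcm2 was also lost after median centring (0.119) and after a second quantile normalization (0.085). The same happened with array weights (0.0666) and with only the 12 WT arrays (0.052). Leaving out 1 array gave 2 to 4 calls in WT (2 without WT basal array 2) and 1 to 2 in mutants, where Sox11 joined Sox4 without mutant learning array 1 or 4 or mutant basal array 2. Sox11 also joined, for 2 calls, with only the 12 mutant arrays and with only genes above the median level, which tests fewer genes. Mki67 turned sign in WT, to between -0.02 and 0.03 when 1 array was left out and to -0.01 without the 3 WT basal arrays low in Ttr, a choice made after seeing the data; Eomes in mutants ran from -0.02 to 0.11. Neither was called in any of these. The exact permutation test made 2 calls (Sox4 in each genotype, not Dcx in WT, adjusted p = 0.0606), and median centring gave 3. With 1 array left out it made between 0 and 3, with 0 without any one of the 6 mutant learning arrays and 3 without WT basal array 6. Leaving out an array reduces the assignments and can make the smallest p coarser. The Sox4 groups stay fully apart, so the counts of 0 do not show that Sox4 depends on a given array. Counts of genotype and interaction calls were 0 throughout. Lists moved by over 1.5 times: in mutants, mitosis genes higher were 3 to 6 and stem and progenitor genes higher 2 to 4 with 1 array left out; mutant paralogues higher were 1 to 3; in WT, checkpoint genes higher were 3 to 5. With only genes above the median level, WT replication genes higher were 7 and mitosis genes higher 2. The causes were not tested.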
